A study of Mus musculus with 6 samples.

Results

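The chemokine ligands are the genes whose symbol is Ccl, Cxcl, Cx3cl or Xcl followed by a number and at most 1 letter, together with Pf4 and Ppbp, which are CXC chemokines with older names. The rule used symbols only and found 39 such genes among the 23225 gene symbols of the count table. The RNA came from dendritic cells sorted out of tumours of ID8, an ovarian cancer line of the mouse, in C57BL/6 mice at day 23. There were 3 libraries of wild-type mice (WT) and 3 of mice with a conditional deletion of XBP1 in cells that express CD11c (XBP1-KO). All 6 libraries share the tumour, the strain, the day and the sort. The labels do not name the alleles or the Cre line, the age of the mice, the sort gate or whether each library came from 1 animal, and p-values therefore reflect only the spread among these libraries, which may be technical. Because deletion follows CD11c, it is not restricted to dendritic cells, since some macrophages also express this integrin chain. Within a genotype the libraries are named a, b and c by column order, and these letters pair no libraries across genotypes.

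Chemokines are small secreted proteins that direct the movement of leukocytes through G protein-coupled receptors. They are grouped by the spacing of their first cysteines into CC, CXC, CX3C and XC ligands, and each receptor usually answers to several ligands. Dendritic cells and macrophages make many of them, for example Ccl22 and Ccl17 of mature dendritic cells or the Ccr2 ligands that draw monocytes into inflamed tissue. XBP1 is a transcription factor of the unfolded protein response that drives genes of the secretory pathway.

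The libraries held between 26946349 and 32709100 counts. Levels below are CPM, the count scaled to a common library total, after TMM scaling, which corrects that total for composition. Xbp1, the targeted gene, had 67.2, 48.7 and 76.8 CPM in WT and 32.5, 30.9 and 40.4 CPM in XBP1-KO. The genotypes did not overlap, with XBP1-KO lower, and its log2 fold change was -0.89 (SE 0.18) with 0.0545 as adjusted p (quasi-likelihood test of edgeR), which missed the threshold of 0.05. The labelled cell type was checked by Itgax, the chain CD11c whose expression directs the deletion. It had 109, 94.3 and 106 CPM in WT and 143, 161 and 133 CPM in XBP1-KO, without overlap, with a log2 fold change of 0.50 (SE 0.13; adjusted p = 0.106). Of other dendritic cell genes, Flt3 had 15.9 to 50.4 CPM over the 6 libraries and Zbtb46 6.88 to 8.92 CPM. Most dendritic cell genes did not share the direction of Itgax. Of 13 genes of type 2 dendritic cells, 2 lay higher in XBP1-KO, Itgax among them, and 11 lower. Of 9 genes of type 1 dendritic cells, 1 lay higher and 8 lower. None of either list was called, and of all tested genes 56.1% lay higher. Lyz2, a lysozyme abundant in monocytes and macrophages, had 9614 to 19039 CPM in the same libraries. On the second principal component of log2 CPM, WT b and XBP1-KO b lay away from the other 4 libraries, at 38.3 and 30.1 against values between -45 and -1. They also held more haemoglobin RNA, with 82.5 and 92.6 CPM of Hba-a2 against 8.75 to 12.2 CPM in the other 4.

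Xcl1 rose about 4-fold in XBP1-KO and was the only chemokine ligand that passed the test, which does not show that the others did not differ. Of the 39 ligands, 32 had enough counts to be tested, 1 was called higher and none lower by the quasi-likelihood test of edgeR at an adjusted p under 0.05. Of all 15958 genes tested, 0.445% were called in either direction, 0.157% higher and 0.288% lower in XBP1-KO. The 71 calls over all genes were 25 higher and 46 lower, a split that became 23 to 27 with upper quartile scaling and 13 to 12 with library size alone. At an unadjusted p under 0.05 there were 4 ligands, Xcl1, Ppbp, Cxcl13 and Ccl1, against 12.9% of all tested genes. DESeq2 called 3 ligands, Xcl1, Cxcl13 and Ppbp, all higher, and it called 3.76% of the 12866 genes that it gave an adjusted p, 0.839% higher and 2.92% lower. The log2 fold change was above 0 for 25 of the 32 tested ligands, with a median of 0.43, where the median of all tested genes was 0.06 and 56.1% lay above 0. The number above 0 was 24 with DESeq2's size factors in edgeR and 28 with upper quartile scaling or library size alone. It was 23 with limma-voom, and leaving out b or a of XBP1-KO gave 22 and 21. The median ran from 0.30 without WT c to 0.71 without WT b when single libraries were left out. The libraries did not overlap between the genotypes for 8 ligands, all higher in XBP1-KO, while 8.8% of all tested genes did so in that direction and 10.4% in the other. These 8 were Xcl1, Ccl4, Ccl1, Ppbp, Cxcl3, Cxcl15, Pf4 and Cxcl12. Counts over tested ligands describe only these 32, since a gene of few counts such as Ccl1 or Cxcl3 passed the filter on low counts through the XBP1-KO libraries, where it was higher. Of 26 tested ligands with a mean of at least 1 CPM, 19 lay above 0, and of 6 under 1 CPM all 6 did.

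**Figure D1:**
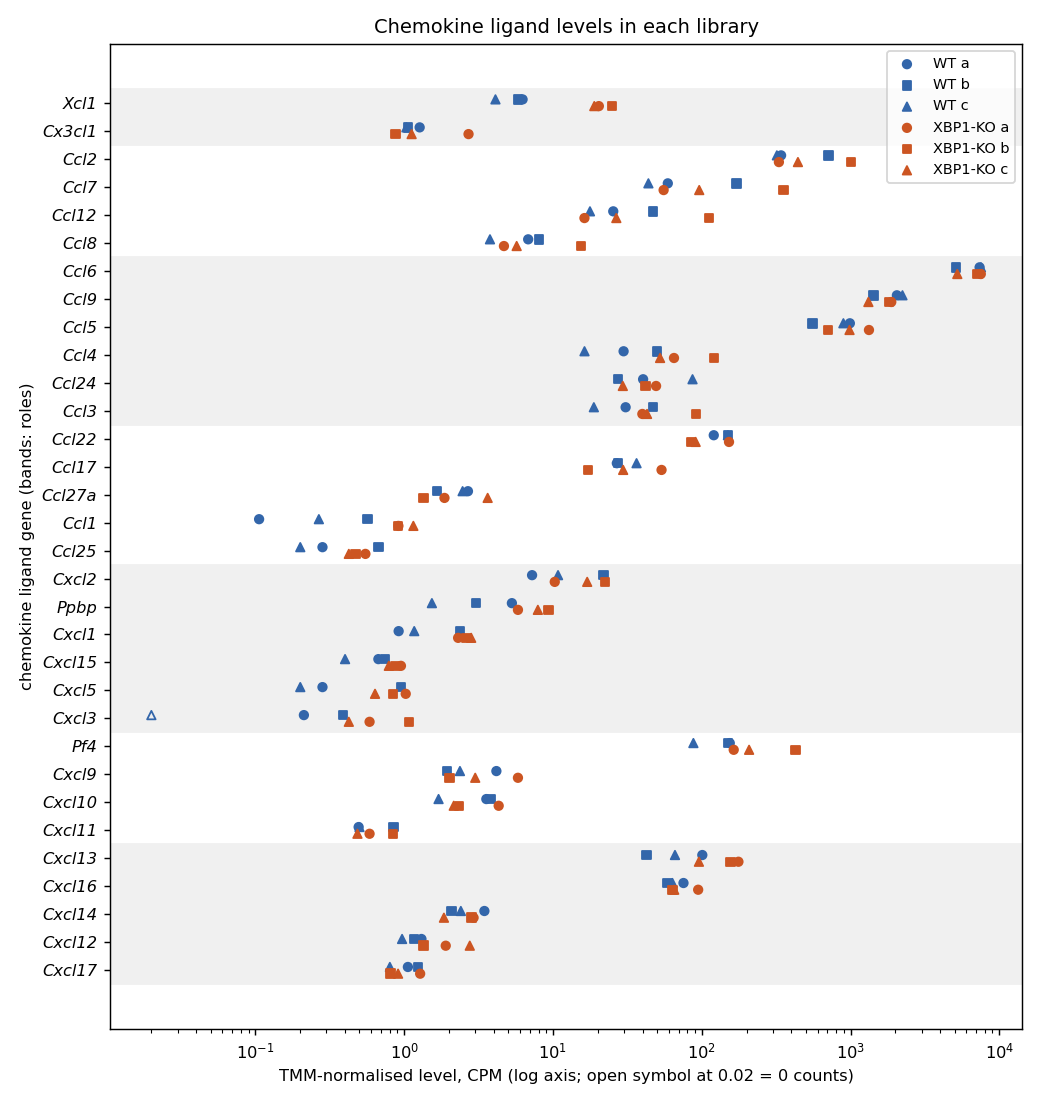
TMM-normalised level of each of the 32 tested chemokine ligands in each library, in CPM on a log axis, with WT in blue, XBP1-KO in orange and marker shapes for libraries a, b and c. Ccl6 lies highest, between 5109 and 7530.1 CPM, Xcl1 separates the genotypes, and libraries b lie to the right for the MCP ligands Ccl2, Ccl7, Ccl12 and Ccl8.

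**Figure D2:**
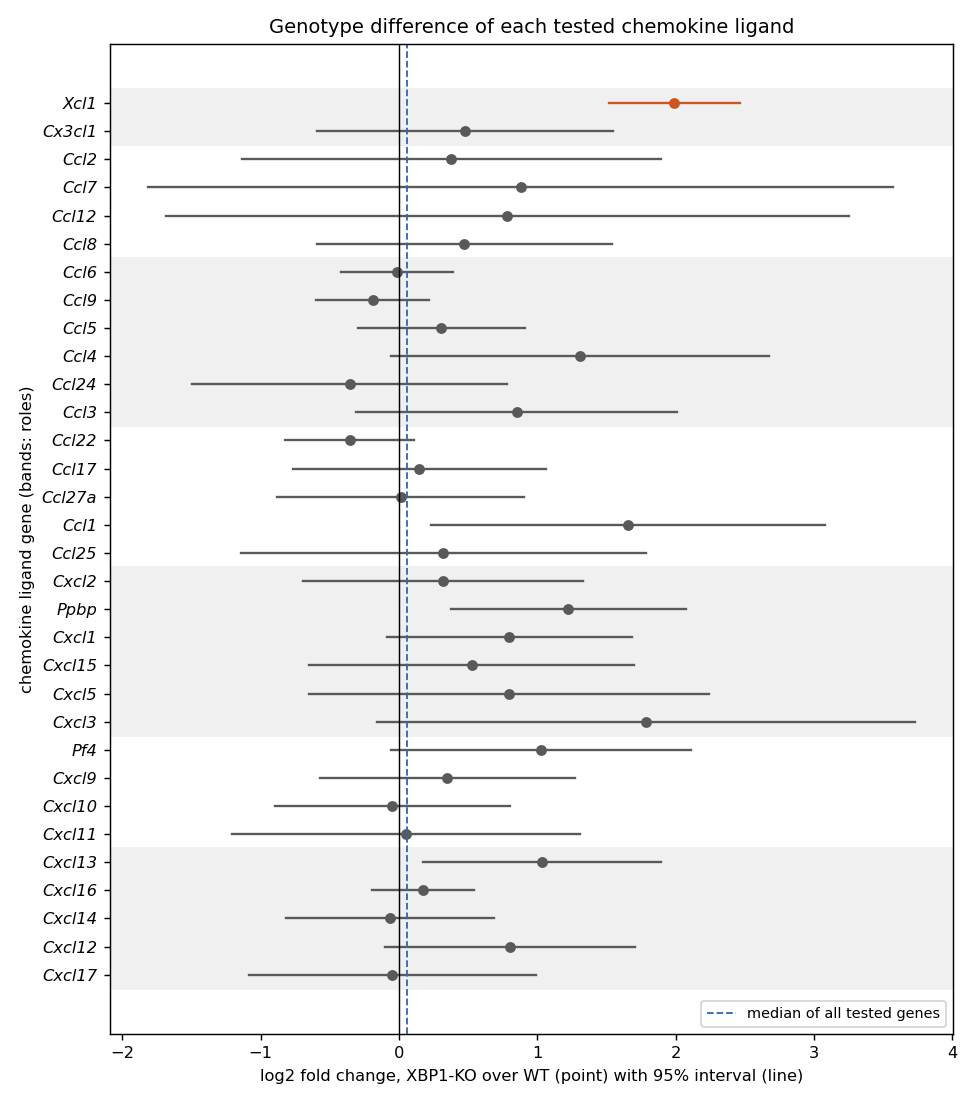
Log2 fold change of each tested chemokine ligand, XBP1-KO over WT, with its 95% interval from edgeR's quasi-likelihood fit, with Xcl1, the only called gene, in orange and the dashed line at the median of all tested genes. The interval of Xcl1 runs from 1.52 to 2.47 and most others include 0.

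Per length of transcript, the ligand output was dominated by Ccl6 in both genotypes. Ccl6, also known as C10, had 4632 CPM per kilobase in WT and 4596 in XBP1-KO, followed by Ccl5 (RANTES) with 1529 and 1893. Ccl9 and Ccl2 came next and exchanged places, with 633 and 563 CPM per kilobase in WT and 555 and 732 in XBP1-KO, and both genes varied between libraries by more than this gap. Pf4 took place 5 in both genotypes with 222 and 453, and Ccl7 place 6 with 114 and 211. Xcl1 was in place 16 in WT with 10.3 CPM per kilobase and in place 13 in XBP1-KO with 41.0. The ligands together made up 0.905% to 1.28% of a library's counts, and these shares overlapped between the genotypes.

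Xcl1 (lymphotactin) is the XC ligand of mice, which NK cells and activated T cells are known to make and whose receptor Xcr1 marks the dendritic cells that cross-present antigen. Its level was 6.25, 5.80 and 4.11 CPM in WT and 20.3, 25.0 and 19.0 CPM in XBP1-KO. Every XBP1-KO library lay far above every WT library. The mean rose from 5.39 ± 1.13 to 21.4 ± 3.14 CPM (SD, n = 3), a log2 fold change of 1.99 (SE 0.22) with adjusted p = 0.00279 (quasi-likelihood test of edgeR). It passed under all 19 alternatives tried, with a log2 fold change between 1.83 and 2.11 and adjusted p = 0.0398 at most. In these bulk samples more cells that make a transcript and more transcript per cell cannot be told apart. Xcr1 itself had 69.4, 171 and 66.8 CPM in WT and 21.6, 115 and 62.1 CPM in XBP1-KO, at adjusted p = 0.781.

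The Xcl1 promoter is shown because Xcl1 is the called ligand. It is the 250 bases before the start in RefSeq on GRCm38.p6, chr1:164935523-164935772 on the minus strand, and its lower case throughout marks that it holds none of the motifs searched below.
Xcl1: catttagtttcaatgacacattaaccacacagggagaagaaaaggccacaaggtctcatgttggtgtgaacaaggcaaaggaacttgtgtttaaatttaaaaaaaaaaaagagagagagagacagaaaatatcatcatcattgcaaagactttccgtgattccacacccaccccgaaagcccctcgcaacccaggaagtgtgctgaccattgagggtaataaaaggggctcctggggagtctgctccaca

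Genes of lymphocytes were higher in the libraries with more Xcl1. Of 17 NK cell genes tested, 16 lay higher in XBP1-KO and 4 rose, and their summed level was 261.9 to 318.9 CPM in WT and 350.0 to 478.8 CPM in XBP1-KO. Of 15 T cell genes, 14 lay higher and 1 rose, with a summed level of 55.64 to 60.75 CPM in WT and 93.55 to 138.8 CPM in XBP1-KO. Of all tested genes 56.1% lay higher and 0.157% were called higher. No gene of either list was at 0 counts in all libraries. Nkg7, a granule membrane protein of cytotoxic cells, had 21.7, 24.5 and 14.9 CPM in WT and 70.5, 89.5 and 48.3 CPM in XBP1-KO. Klra7, a Ly49 receptor of NK cells, had 3.28, 4.35 and 2.94 against 11.9, 14.3 and 11.5 CPM, and Cd3e of the T cell receptor complex 4.34, 7.26 and 4.61 against 14.9, 20.2 and 13.5 CPM. The adjusted p-values of Nkg7, Klra7 and Cd3e were 0.0201, 0.00991 and 0.0227 in the quasi-likelihood test of edgeR. Within a library the ratio of Xcl1 to Nkg7 was 0.288, 0.237 and 0.276 in WT and 0.289, 0.279 and 0.392 in XBP1-KO, and its ratio to Klra7 was 1.90, 1.33 and 1.40 against 1.71, 1.74 and 1.65. Both ratios overlapped between the genotypes. The ratio of Xcl1 to Cd3e was 1.439, 0.800 and 0.891 in WT and 1.363, 1.233 and 1.408 in XBP1-KO. Its ratio to Ncr1, another of the NK cell genes, was 1.135, 0.686 and 0.676 against 1.024, 0.944 and 1.619. These ratios overlapped as well, and the mean of each of the 4 was higher in XBP1-KO. The genes in these ratios were chosen after their values were seen, and Nkg7, Klra7 and Cd3e were themselves called higher. Their overlap therefore does not extend to the other genes of the lists. The summed levels of the NK cell and T cell genes, given above, rose by a smaller factor than Xcl1. The part of lymphocyte RNA in the rise of Xcl1 was not tested.

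**Figure D3:**
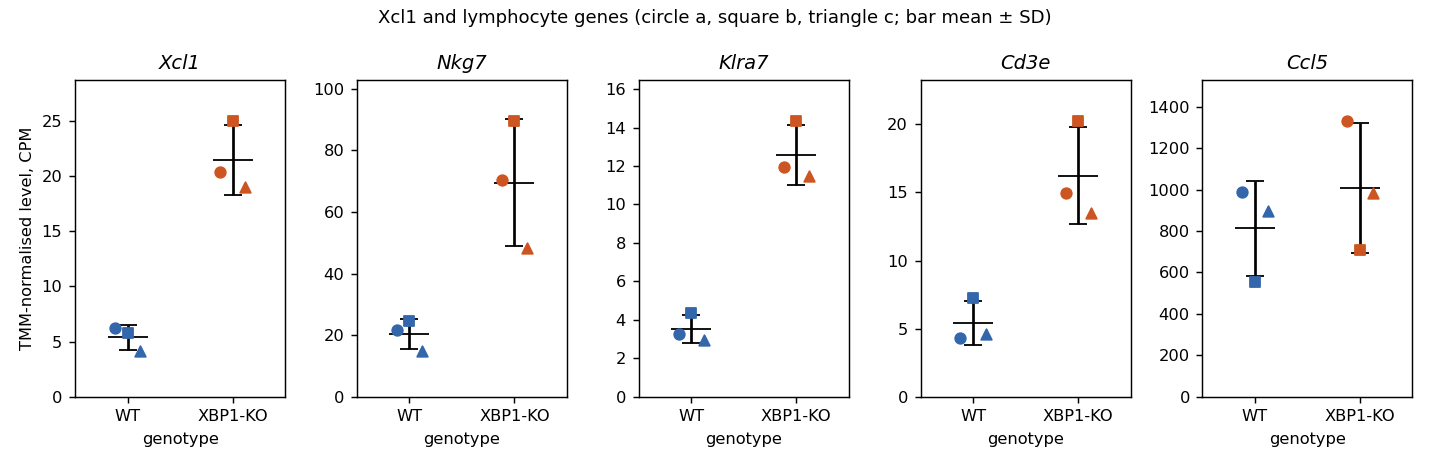
Levels in CPM of Xcl1, of the lymphocyte genes Nkg7, Klra7 and Cd3e and of Ccl5 by genotype, with 1 symbol per library and the mean ± SD as bars. For Xcl1, Nkg7, Klra7 and Cd3e every XBP1-KO library lies above every WT library. For Ccl5 the genotypes overlap, with 555 to 990 CPM in WT and 706 to 1331 CPM in XBP1-KO.

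Cx3cl1 (fractalkine), a membrane-bound ligand of Cx3cr1, stayed near 1 CPM. It had 1.27, 1.06 and 1.04 CPM in WT and 2.71, 0.877 and 1.12 CPM in XBP1-KO, so that XBP1-KO a alone lay above the WT range. Its adjusted p was 0.718.

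None of the 4 monocyte chemoattractant protein (MCP) ligands passed the test, and libraries within a genotype differed more than the genotype means did. Ccl2, Ccl7 and Ccl12 draw monocytes through Ccr2, while mouse Ccl8 is known mainly as a ligand of Ccr8. Ccl2 (MCP-1) had 342, 711 and 319.9 CPM in WT and 330.1, 1011 and 443 CPM in XBP1-KO. The log2 fold change of Ccl2 was 0.38 (SE 0.58), with a 95% interval from -1.14 to 1.90 and adjusted p = 0.828. Ccl7 (MCP-3) had 59.2, 172 and 43.8 CPM in WT and 55.4, 354 and 96.2 CPM in XBP1-KO. The libraries overlapped, and its log2 fold change was 0.88 (SE 0.99, interval -1.81 to 3.57; adjusted p = 0.759). These intervals include a change of over 2-fold, so the libraries do not settle whether Ccl2 or Ccl7 differ. Ccl12 (MCP-5) ran from 17.7 to 47.0 CPM in WT and from 16.3 to 112 CPM in XBP1-KO, and Ccl8 (MCP-2) from 3.77 to 8.07 and from 4.68 to 15.5 CPM.

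Libraries WT b and XBP1-KO b held the highest level of their genotype for all 4 MCP ligands. In XBP1-KO b these ligands were 2.61 to 5.23 times the mean of the other XBP1-KO libraries, with Ccl12 at 5.23, Ccl7 at 4.67, Ccl8 at 2.98 and Ccl2 at 2.61. In WT b the factors were 3.34 for Ccl7, 2.18 for Ccl12, 2.15 for Ccl2 and 1.52 for Ccl8. Across the 32 tested ligands 9 had this pattern, the 4 MCP ligands with Ccl3, Ccl4, Cxcl2, Cxcl3 and Cxcl11, which is 28.1% against 18.9% of all tested genes. Without XBP1-KO b the log2 fold changes of Ccl2, Ccl7, Ccl12 and Ccl8 were -0.25, -0.27, -0.49 and -0.27. Without either library b they were 0.21, 0.55, -0.02 and -0.04, and none passed in either fit. Ccl2, Ccl7, Ccl11, Ccl12, Ccl8 and Ccl1 follow each other in this order in RefSeq on GRCm38, with no other protein-coding gene between them. Within this run the ratio of Ccl7 to Ccl2 was 0.173, 0.242 and 0.137 in WT and 0.168, 0.3505 and 0.217 in XBP1-KO, highest in libraries b, and it overlapped between the genotypes. The same libraries had more RNA of type 1 dendritic cells, with 1944 and 1250 CPM summed over 9 marker genes against 575.6 to 947.5 CPM in the other 4, and more haemoglobin RNA, as given above. Immediate early and handling stress genes, which cell isolation can raise, had 1360 and 1124 CPM summed over 16 genes in WT b and XBP1-KO b against 1018 to 1318 CPM. The part of these in the high levels of libraries b was not tested.

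**Figure D4:**
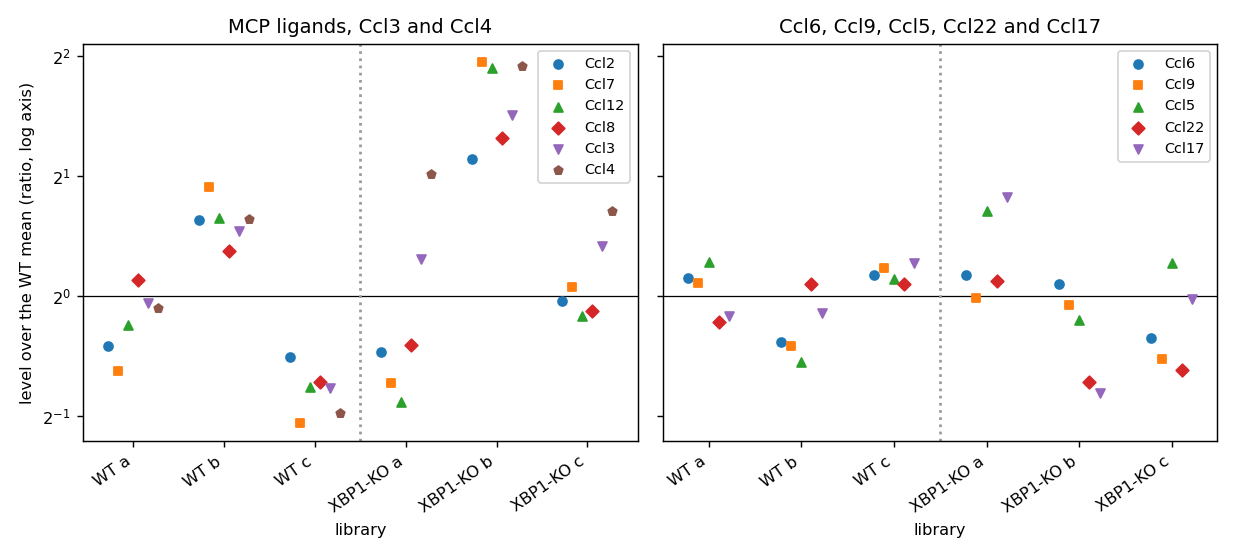
Level of 11 CC ligands in each library divided by the mean of the WT libraries, on a log axis, with the MCP ligands, Ccl3 and Ccl4 on the left and Ccl6, Ccl9, Ccl5, Ccl22 and Ccl17 on the right. On the left WT b and XBP1-KO b lie highest within their genotype, and on the right no ligand has its highest level in library b in both genotypes.

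The Ccl12 promoter is shown as that of the MCP ligand with the highest factor in XBP1-KO b. It is the 250 bases before the start in RefSeq on GRCm38.p6, chr11:82101595-82101844 on the plus strand, with a TATA box in capitals.
Ccl12: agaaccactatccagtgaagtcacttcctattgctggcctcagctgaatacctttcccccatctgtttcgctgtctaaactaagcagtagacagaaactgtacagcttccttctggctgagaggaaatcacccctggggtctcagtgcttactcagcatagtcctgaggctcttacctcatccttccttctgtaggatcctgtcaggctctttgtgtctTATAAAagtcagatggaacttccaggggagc

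The inflammatory CC ligands held both the most abundant chemokines, which differed little, and Ccl3 and Ccl4, which lay higher in XBP1-KO without passing. Ccl6 had 7373, 5109 and 7530.1 CPM in WT and 7510.4, 7123 and 5221 CPM in XBP1-KO. Its log2 fold change was -0.01 (SE 0.19), with an interval from -0.42 to 0.39 and adjusted p = 0.982. Ccl9 (MIP-1 gamma), a neighbour of Ccl6, ran from 1423 to 2234 CPM in WT and from 1319 to 1879 CPM in XBP1-KO, with a log2 fold change of -0.19 (interval -0.60 to 0.22). Ccl5, which T cells, NK cells and myeloid cells all make, had 989.8, 555 and 896 CPM in WT and 1331, 706 and 985 CPM in XBP1-KO, at adjusted p = 0.667. For each of these 3 ligands the interval excludes a 2-fold change in either direction. The ratio of Ccl5 to Nkg7 was 45.6, 22.7 and 60.1 in WT and 18.9, 7.89 and 20.4 in XBP1-KO, without overlap. An exact permutation test gave the smallest possible p of 0.1, or 0.4 adjusted over the 12 ratios described below. Nkg7 was itself called higher in these data, which alone can separate this ratio, so the test says nothing about Ccl5.

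Ccl4 (MIP-1 beta) had 29.8, 50.2 and 16.3 CPM in WT and 65.1, 121 and 52.5 CPM in XBP1-KO. Every XBP1-KO library lay above every WT library, though WT b at 50.2 CPM came close to XBP1-KO c at 52.5 CPM. The log2 fold change of Ccl4 was 1.31 (SE 0.53), with an interval from -0.06 to 2.68 and adjusted p = 0.408. With libraries b as a batch term it passed at 0.0149, and with both libraries b left out it had an adjusted p of 0.0701, both by the quasi-likelihood test of edgeR. With the batch term 2.67% of all tested genes were called, 0.583% higher and 2.09% lower. Ccl3 (MIP-1 alpha) had 30.8, 46.9 and 18.8 CPM in WT and 39.9, 91.5 and 42.9 CPM in XBP1-KO, overlapping through WT b, at adjusted p = 0.519 and 0.0336 with the batch term. No label names such a batch, and the term was chosen after seeing the data. Ccl3 and Ccl4 were themselves highest in libraries b, so the fits with the term or without these libraries are no independent support for a difference. Ccl24 (eotaxin-2), a Ccr3 ligand that attracts eosinophils, ran from 27.5 to 86.7 CPM in WT and from 29.5 to 49.3 CPM in XBP1-KO. Its log2 fold change of -0.36 became 0.24 without WT c, its highest library.

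Ratios of neighbouring ligands within a library do not depend on the scaling, and those of Ccl9 to Ccl6 and of Ccl3 to Ccl4 separated the genotypes. Ccl5, Ccl9, Ccl6, Ccl3 and Ccl4 follow each other in RefSeq on GRCm38. Ccl9 over Ccl6 was 0.278, 0.279 and 0.297 in WT and 0.2502, 0.2538 and 0.2526 in XBP1-KO, although each gene alone overlapped between the genotypes. Ccl3 over Ccl4 was 1.03, 0.935 and 1.16 in WT and 0.613, 0.756 and 0.817 in XBP1-KO. A two-sided exact permutation test gave p = 0.1 for each, the lowest that 3 libraries against 3 can reach, and 0.4 after adjustment over the 12 ratios computed, which were chosen after their values were seen. Paralogous ligands share sequence, and the counting could divide reads between them.

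**Figure D5:**
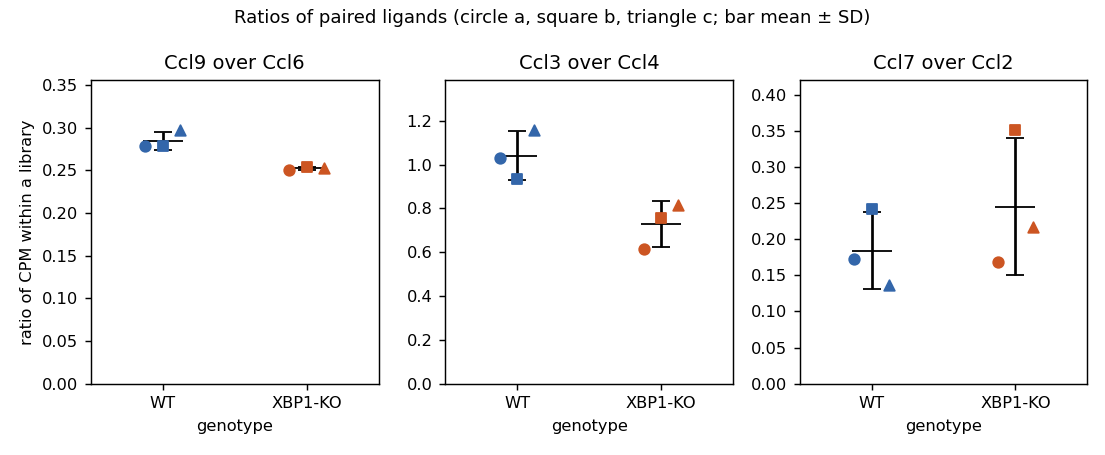
Ratio of Ccl9 to Ccl6, of Ccl3 to Ccl4 and of Ccl7 to Ccl2 in each library, with 1 symbol per library and the mean ± SD per genotype as bars. Ccl9 over Ccl6 and Ccl3 over Ccl4 do not overlap between the genotypes, and Ccl7 over Ccl2 is highest in libraries b.

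No CC ligand that guides dendritic and T cells passed the test. Ccl22 (MDC), a Ccr4 ligand of mature dendritic cells, had 120.5, 150.0 and 150.0 CPM in WT and 153, 85.0 and 91.0 CPM in XBP1-KO. XBP1-KO b and c lay below every WT library and XBP1-KO a above, with a log2 fold change of -0.36 (SE 0.21) and adjusted p = 0.519. Ccl17 (TARC), the other Ccr4 ligand, had 26.88, 27.4 and 36.5 CPM in WT and 53.7, 17.2 and 29.6 CPM in XBP1-KO, again highest in XBP1-KO a. The gene order Ccl22, Cx3cl1 and Ccl17 is unbroken in RefSeq, and all 3 genes were highest in XBP1-KO a. Over 10 mature dendritic cell markers that are not ligands, the summed level was 878 to 965 CPM in WT and 760.2 to 977 CPM in XBP1-KO, and it too was highest in XBP1-KO a and lowest in XBP1-KO b. Ccl1, a Ccr8 ligand of T cells and mast cells, had 0.106, 0.566 and 0.267 CPM in WT and 0.915, 0.911 and 1.153 CPM in XBP1-KO. The log2 fold change of Ccl1 was 1.65 (SE 0.66) and the adjusted p 0.305. Among 9 mast cell genes tested 8 lay higher in XBP1-KO and 3 rose, against 56.1% and 0.157% of all tested genes, with a summed level of 123.3 to 196.5 CPM in WT and 149.7 to 206 CPM in XBP1-KO, and their part in Ccl1 was not tested. Ccl27a and Ccl25, ligands of Ccr10 and Ccr9, stayed at or below 3.64 CPM, with log2 fold changes of 0.01 and 0.32.

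The 6 CXC ligands that attract neutrophils, most of them through Cxcr2, all had a log2 fold change above 0, against 56.1% of all tested genes, and none passed. Cxcl3 and Cxcl5 passed the filter on low counts through the XBP1-KO libraries, so their direction is not free of the filter. Cxcl2 (MIP-2) had 7.24, 21.9 and 10.8 CPM in WT and 10.3, 22.5 and 17.0 CPM in XBP1-KO. The libraries b were again highest in each genotype, and the log2 fold change was 0.32 (SE 0.44, interval -0.70 to 1.33) at adjusted p = 0.799. Cxcl1 (KC) had 0.918, 2.37 and 1.17 CPM in WT and 2.31, 2.63 and 2.82 CPM in XBP1-KO, overlapping through WT b. Cxcl3, Cxcl5 and Cxcl15 lay at or below 1.08 CPM in each library, with 6 to 32 counts for Cxcl3 outside WT c, where it had 0. Ppbp, the precursor of the platelet chemokine NAP-2, had 5.30, 3.04 and 1.54 CPM in WT and 5.82, 9.34 and 7.92 CPM in XBP1-KO. The genotypes did not overlap for Ppbp, with WT a just below XBP1-KO a, and the log2 fold change was 1.23 (SE 0.39, interval 0.37 to 2.08) at adjusted p = 0.202. DESeq2 gave Ppbp an adjusted p of 0.0395. All 9 neutrophil genes tested lay higher in XBP1-KO, against 56.1% of all tested genes, and none passed, with a summed level of 127.2 to 333.3 CPM in WT and 357.5 to 585.3 CPM in XBP1-KO. One of them, Cxcr2, is the receptor of most of these ligands and had 29.0, 48.8 and 23.8 CPM in WT and 39.8, 66.6 and 37.5 CPM in XBP1-KO, highest in libraries b as Cxcl2 was. The summed neutrophil genes were not highest there, with 333.3, 142.5 and 127.2 CPM in WT and 483, 357.5 and 585.3 CPM in XBP1-KO.

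Cxcl2 and Cxcl3 are shown because they share an NF-kB motif before the start and their highest level in libraries b, at only 11 counts of Cxcl3 in WT b. Among the other ligands whose promoter could be searched, motif and pattern did not go together. Ccl2, Ccl7, Ccl4 and Cxcl11 also have the pattern, but their promoters were not available and were not searched. Cxcl1 and Ccl9 hold the motif without the pattern, and Ccl12, Ccl8 and Ccl3 have the pattern without the motif. Both are the 250 bases before the start in RefSeq on GRCm38.p6 on the plus strand, Cxcl2 at chr5:90903649-90903898 and Cxcl3 at chr5:90785851-90786100. Capitals mark the matches to the NF-kB motif and, in Cxcl3, a TATA box.
Cxcl2: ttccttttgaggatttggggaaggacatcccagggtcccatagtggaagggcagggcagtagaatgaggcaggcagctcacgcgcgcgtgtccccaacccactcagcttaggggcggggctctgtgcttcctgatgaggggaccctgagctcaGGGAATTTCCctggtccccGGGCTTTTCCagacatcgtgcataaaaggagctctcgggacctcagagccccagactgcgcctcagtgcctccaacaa
Cxcl3: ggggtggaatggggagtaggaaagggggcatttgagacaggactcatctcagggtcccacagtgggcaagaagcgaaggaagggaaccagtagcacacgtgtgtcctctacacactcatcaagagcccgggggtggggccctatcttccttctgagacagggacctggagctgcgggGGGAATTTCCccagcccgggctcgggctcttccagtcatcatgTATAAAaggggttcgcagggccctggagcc

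Pf4 (CXCL4), a chemokine of platelets that macrophages also express, had 154, 149.8 and 87.9 CPM in WT and 164, 427 and 208 CPM in XBP1-KO. Every XBP1-KO library lay above every WT library, with WT a and XBP1-KO a close together. The log2 fold change of Pf4 was 1.03 (SE 0.43, interval -0.06 to 2.11) at adjusted p = 0.413, and it was 0.50 without XBP1-KO b. Most platelet and megakaryocyte genes were low. A mean under 1 CPM was found for 7 of 10 platelet and megakaryocyte genes, among them Gp9, Gp6, Treml1 and Tubb1, and of the 5 tested 1 lay higher in XBP1-KO. Summed over the 10 genes the level was 23.10 to 47.04 CPM in WT and 16.90 to 29.28 CPM in XBP1-KO, and none of them was at 0 in every library. Itga2b, the platelet integrin CD41, had 1.48 to 2.17 CPM in WT and 1.10 to 2.496 CPM in XBP1-KO. The part of platelets and of macrophages in the level of Pf4 was not tested. The Cxcr3 ligands Cxcl9, Cxcl10 and Cxcl11, which interferon induces and which attract effector T cells, were low. Cxcl9 had 4.17, 1.95 and 2.37 CPM in WT and 5.82, 2.02 and 3.00 CPM in XBP1-KO, and Cxcl10 3.57, 3.82 and 1.70 against 4.32, 2.33 and 2.15 CPM. Their log2 fold changes were 0.35 and -0.05, and that of Cxcl11, which lay below 1 CPM, was 0.05. The sign for Cxcl10 turned under 8 of 19 alternatives, upper quartile scaling among them.

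Cxcl13 (BLC), a Cxcr5 ligand that attracts B cells and that peritoneal macrophages express, had 101, 42.4 and 66.1 CPM in WT and 176, 156 and 95.8 CPM in XBP1-KO. Only WT a and XBP1-KO c overlapped. The log2 fold change of Cxcl13 was 1.03 (SE 0.36, interval 0.17 to 1.89) at adjusted p = 0.303, and DESeq2 gave 0.0132. Of 13 other genes of resident peritoneal macrophages, 11 lay higher in XBP1-KO, against 56.1% of all tested genes, and Alox15 rose, from 303 ± 23.7 to 651 ± 141 CPM (SD, n = 3). Their summed level overlapped, at 2734 to 3983 CPM in WT and 2630.0 to 3342 CPM in XBP1-KO. Fn1, which is among them and did not pass, had 2472, 1407 and 3015 CPM in WT and 1101, 981 and 1013 CPM in XBP1-KO. B and plasma cell genes had a summed level of 209 to 386 CPM in WT and 387 to 549 CPM in XBP1-KO, and their part and that of macrophages in Cxcl13 were not tested. Cxcl16, a membrane-bound ligand of Cxcr6, ran from 59.0 to 75.4 CPM in WT and from 63.8 to 94.6 CPM in XBP1-KO. With an interval of -0.19 to 0.54 around a log2 fold change of 0.18, a 2-fold change of Cxcl16 is outside its range. Cxcl12 (SDF-1), the Cxcr4 ligand of stromal cells, had 1.31, 1.17 and 0.969 CPM in WT and 1.90, 1.35 and 2.76 CPM in XBP1-KO without overlap, and a log2 fold change of 0.80 (SE 0.42) at adjusted p = 0.451. Cxcl14 and Cxcl17 lay between 0.802 and 3.46 CPM with log2 fold changes of -0.07 and -0.05.

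The other 7 ligands had too few counts to be tested, with 0 to 13 counts in any library. They were Ccl11 (eotaxin), Ccl26, Ccl19, Ccl20, Ccl21a, Ccl21b and Ccl21c. Ccl20, the Ccr6 ligand, had 1 count in all 6 libraries together. Ccl21b and Ccl21c carried the same counts in every library, as did Ccl21a and its copy Gm1987, so the counts of these near-identical genes are uncertain. The depth does not show whether any of the 7 differs between the genotypes.

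The promoters of 27 of the 39 ligands were in the RefSeq table, with 30 starts, and the 250 bases before each start were searched on both strands. The NF-kB motif, in the form shown in capitals for Cxcl2 and Cxcl3, was in 5 of the 30, those of Cxcl1, Cxcl2, Cxcl3, Ccl9 and Ccl20, which is 16.7% against 1.41% of all 32851 promoters. The TATA box TATAAA was in 33.3% against 12.4%, the interferon-stimulated response element in 10% against 2.98% (Ccl19, Cxcl10 and Cxcl14), and the AP-1 motif TGANTCA in 13.3% against 6.75%. The unfolded protein response element TGACGTGG, which XBP1 is known to bind, was in none of the 30 and in 0.563% of all promoters, and the ER stress response element was in none of them and in 0.113% of all. A match describes the letters in this window only. The motifs as searched do not overlap one another in the promoters shown.

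Genes that act with the ligands showed 1 call, in receptor signalling. The counts below stand against 12.9% of all tested genes at an unadjusted p under 0.05, 0.445% called by edgeR (0.288% lower) and 3.76% called by DESeq2. Of 25 chemokine receptors 20 were tested and none passed in the quasi-likelihood test of edgeR, with 11 above and 9 below 0 and 7 at an unadjusted p under 0.05, and DESeq2 called 2, Ccr2 and Ccr3. Ccr2, the receptor of Ccl2, Ccl7 and Ccl12, had the smallest p among the receptors, with 2694, 2282 and 3107 CPM in WT and 1698, 1862 and 1607 CPM in XBP1-KO. All XBP1-KO libraries lay below all WT libraries, with a log2 fold change of -0.65 (SE 0.15) and adjusted p = 0.0785. Of 37 signalling genes tested Dock2, an exchange factor that activates Rac in migrating leukocytes, fell. Dock2 had 443, 516 and 559.7 CPM in WT and 282, 300.2 and 259.9 CPM in XBP1-KO, with a log2 fold change of -0.85 (SE 0.13) and adjusted p = 0.0199, and it missed the threshold when WT c, or a or c of XBP1-KO, was left out. Of 37 inducers of chemokine transcription none passed in the quasi-likelihood test of edgeR, with 17 above and 20 below 0 and 10 at an unadjusted p under 0.05. The smallest p among the inducers was that of Stat6, a factor of the IL-4 response, with 299.7, 347 and 299 CPM in WT and 181, 228 and 199 CPM in XBP1-KO and adjusted p = 0.0565. Of 19 proteases and binders that act on chemokines none passed in that test, with 10 above and 9 below 0 and 7 at an unadjusted p under 0.05. Dpp4, a peptidase that trims chemokines, had the smallest p, with 195, 242 and 192 CPM in WT and 168, 142 and 151 CPM in XBP1-KO and adjusted p = 0.162. DESeq2 called 3 of the inducers and 1 of the proteases and binders.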

How the data were processed

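The authors deposited whole-number counts per gene symbol for 6 libraries, not normalized, and a table of CPM values for 13946 of the genes. Each deposited CPM value equalled the count over the library total, on the CPM scale, within 5.1e-11. RSEM, edgeR and the build mm9 are named per the submitters' processing notes, with no version or role; the aligner, the annotation and the strand setting were not given in the sources used here. Columns carry a genotype and no replicate number.

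Counts were tested with edgeR 4.0.16 (R 4.3.3) over all genes kept by filterByExpr (15958), with TMM scaling, genotype as the only term, robust glmQLFit, the two-sided quasi-likelihood F test and Benjamini-Hochberg adjustment over all of them. The standard error is the fold change over the square root of F, and intervals are at 95%. The fit was tested on simulated data. Levels per kilobase use the longest protein-coding transcript of GENCODE M21 (GRCm38). Sequences and gene order are from RefSeq GRCm38.p6 and not from mm9. Alternatives used DESeq2 1.42.0, limma 3.58.1, other scalings and filters, single libraries left out, and, chosen after seeing the data, both libraries b left out or as a batch term.

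The members and lists were chosen with earlier results of these data known. Full values were given by rule for Xcl1, Ccl2, Ccl7 and Cxcl2, for called ligands, for ligands of at least 1 CPM without overlap, for the most abundant ligand of each role and, of each pathway list, for called genes or the gene with the smallest p. Other genes, ratios and promoters were chosen after their values were seen. For the abundant ligands counting error is small at this depth, and the spread between libraries (biological coefficient of variation 0.25) limits the precision. For ligands of few counts the counting error limits it as well. Among them are Ccl1, with 3, 16 and 8 counts in WT, and Cxcl3, with 6, 11 and 0. Libraries of one genotype differed by more than counting noise in every pair.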

Additional observations from a re-analysis of the deposited data

How the results depend on the processing

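The number of chemokine ligands called was 1 under 17 of 19 alternatives, and that gene was Xcl1 in each of them. It was 3 with DESeq2 (Xcl1, Cxcl13 and Ppbp) and 3 with libraries b as a batch term (Xcl1, Ccl3 and Ccl4), all higher in XBP1-KO. For chemokine receptors, with 0 called in the main test, the number was 2 with DESeq2, 2 with the likelihood ratio test, 1 without a filter on low counts, 1 without both libraries b, 1 with the batch term and 0 to 1 with a single library left out. For receptor signalling, with 1 called, it was 4 with DESeq2, 4 with the batch term and 0 to 1 with a single library left out. For inducers of chemokine transcription, with 0 called, it was 3 with DESeq2, 1 with the likelihood ratio test, 1 without a filter on low counts, 1 without both libraries b, 1 with the batch term and 0 to 2 with a single library left out. For proteases and binders, with 0 called, it was 1 with DESeq2, 1 with the batch term and 0 to 1 with a single library left out. The cause of these differences was not tested. No chemokine ligand called in any of these fits changed its direction between them. For genes other than the ligands this was not compared. Of all genes, 71 were called in the main test, 484 with DESeq2, 255 with the likelihood ratio test, 252 without a filter, 426 with the batch term, 45 without robust estimation, 31 and 29 with the deposited CPM at a pseudocount of 1 and 0.1, 25 with library size alone and 5 to 154 with a single library left out. No paired analysis was possible because the columns carry no replicate number. With 3 libraries a genotype, the spread between libraries b and the others limits what can be said of the MCP ligands.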
